A study of Mus musculus with 6 samples.

Results

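A set of 10 genes that are commonly used to recognise inhibitory interneurons of the cortex was followed through RNA sequencing of the mouse medial prefrontal cortex (mPFC). They were Gad1, Gad2, Slc32a1, Pvalb, Calb2, Lhx6, Adarb2, Reln, Lamp5 and Erbb4, taken by gene name from the deposited table of gene counts and FPKM values. All 10 were present among its 31763 genes, and all 10 were among the 18970 genes that entered the tests, for which 3 or more of the 6 libraries had to hold 10 or more counts. The Morphine group (10 mg/kg, i.p., 3 libraries) and the Saline group (10 ml/kg, i.p., 3 libraries) were male C57BL/6J mice aged 8 to 10 weeks, with no transgene or deletion in either group. All had been trained for conditioned place preference, in which an animal learns to associate one chamber with the injection, and had then been kept in the home cage without drug. The mPFC was taken right after a last test in which the animals could again enter the chambers freely, so both groups had just been re-exposed to the training context. The comparison asks which transcripts of the mPFC differ between the groups after this test. The earlier morphine injections, the drug-free days after them and the retrieval of the reward memory cannot be told apart in it. The sources used here do not say whether each library came from 1 mouse, so the p-values measure the spread between these libraries, which may be partly technical.

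Interneurons make GABA, the main inhibitory transmitter of the cortex, and are a minority of its neurons beside the excitatory pyramidal cells. Most cortical interneurons arise in the medial or the caudal ganglionic eminence of the embryonic forebrain, and many keep lineage genes and calcium-binding proteins by which they are sorted into classes in the adult. In the prefrontal cortex they pace and restrain pyramidal cells, and parvalbumin cells are the best known source of fast inhibition. None of the 10 genes is read only in cortical interneurons: GABA enzymes, calretinin and reelin are also well known in the olfactory bulb, whose neurons include many inhibitory granule and periglomerular cells and the excitatory mitral and tufted cells. In RNA from bulk tissue, fewer cells of a type and less RNA per cell cannot be told apart.

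The 6 libraries held 17984153 to 23529592 counts assigned to genes. Saline 1 stood apart from the rest. The chi-square of its counts over the degrees of freedom was 14.7 and 13.1 against Saline 2 and Saline 3, where the other pairs within a group gave 2.91 to 5.43. The tissue label was checked against 12 markers of cortical pyramidal neurons, all of which were detected in every library. Their summed level was 5236 to 5738 CPM (the count scaled to the size of the library, with TMM factors) in Morphine 1 to 3, against 4526 CPM in Saline 1 and 5310 to 5472 CPM in Saline 2 and 3, and 11 of the 12 were lower in Saline 1 than in any other library. The 9 markers fixed for mitral and tufted cells of the olfactory bulb summed to 17.96 to 19.75 CPM in the Morphine libraries, against 181 CPM in Saline 1 and 14.75 to 18.03 CPM in Saline 2 and 3. Eomes, a transcription factor of these cells, had 6, 1 and 7 counts in Morphine 1 to 3, against 462, 2 and 0 counts in Saline 1 to 3. Of the 9 markers, 7 were over 2 times their highest level elsewhere in Saline 1, and 3 were at 0 in at least 1 of the other libraries. The 9 markers of olfactory bulb granule and periglomerular cells summed to 308 to 341 CPM in the Morphine libraries, against 892 CPM in Saline 1 and 294 to 314 CPM in Saline 2 and 3. Of these 9, 8 were over 2 times their highest level elsewhere in Saline 1. For this reason each result below is given with all 6 libraries and without Saline 1, and the part of these other cells in the levels of the interneuron genes was not tested.

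The 10 genes lie on 6 chromosomes and range in span from 4.98 kb for Slc32a1 to 1076 kb for Erbb4 (GRCm38, GENCODE annotation). The start regions of 4 of them are printed here because these genes separate the patterns described here: Slc32a1 and Reln, which were highest in Saline 1, Adarb2, which was also lower in every Morphine library than in any Saline library, and Pvalb, which was lowest in Saline 1. Each is the 200 bases before the RefSeq transcription start, 5′ to 3′ on the gene's strand, from the RefSeq GRCm38.p6 annotation, with CG pairs in capitals. The regions are chr2:158610558-158610757 (plus strand) for Slc32a1, chr5:22344706-22344905 (minus strand) for Reln, chr13:8202666-8202865 (plus strand) for Adarb2 and chr15:78206401-78206600 (minus strand) for Pvalb.
Slc32a1: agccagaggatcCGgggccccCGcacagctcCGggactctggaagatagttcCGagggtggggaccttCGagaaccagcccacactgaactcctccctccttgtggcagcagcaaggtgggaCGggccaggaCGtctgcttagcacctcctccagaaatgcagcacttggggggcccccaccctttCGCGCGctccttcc
Reln: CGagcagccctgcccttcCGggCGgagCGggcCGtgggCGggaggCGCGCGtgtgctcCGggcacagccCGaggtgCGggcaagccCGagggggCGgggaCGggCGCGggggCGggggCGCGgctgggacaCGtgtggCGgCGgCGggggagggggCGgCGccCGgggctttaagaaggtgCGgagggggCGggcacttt
Adarb2: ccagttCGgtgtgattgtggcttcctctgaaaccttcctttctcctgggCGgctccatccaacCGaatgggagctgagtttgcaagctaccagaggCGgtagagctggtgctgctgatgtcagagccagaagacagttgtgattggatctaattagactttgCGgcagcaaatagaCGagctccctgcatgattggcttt
Pvalb: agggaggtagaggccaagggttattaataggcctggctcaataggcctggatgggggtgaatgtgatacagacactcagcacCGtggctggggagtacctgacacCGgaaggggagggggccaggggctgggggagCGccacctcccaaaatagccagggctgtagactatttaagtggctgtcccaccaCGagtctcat

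A start region was found in the RefSeq table for 9 of the 10 genes, all but Calb2, with 13 regions in all because Pvalb, Lhx6 and Lamp5 have more than 1 annotated start. Reln had 29 CG pairs and 81% G or C, and 96.8% of all 32851 mouse start regions of that length held fewer CG pairs. Slc32a1 had 10 CG pairs and Adarb2 had 6, against a median of 5 over all start regions. Pvalb has a pair of start regions: the printed one, at the start of the GENCODE gene, had 4 CG pairs (42.9% of all regions held fewer), and the other, at chr15:78204238-78204437, had 19 (85.6% held fewer). Which of them was used in these libraries was not tested. The letters TATAAA were found, on either strand, in 1 of the 13 regions, the one before Gad1, and in 9.96% of all regions. The letters TAATTA, a core shared by many homeodomain proteins, were found in 1 of the 13 regions, the one before Adarb2, and in 3.73% of all regions, also on either strand. These are matches of letters, not measured binding sites.

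In the Morphine libraries, as in Saline 2 and 3, the 10 genes spanned a wide range of levels, and the coefficient of variation of a gene's CPM over these 5 libraries was 3.12 to 16.8%. FPKM, which divides by transcript length and so allows genes to be set side by side, averaged 47.9 for Lamp5 over the 5 libraries other than Saline 1, the highest of the 10. Gad1 followed with 33.2 FPKM, Gad2 with 26.3 FPKM, Pvalb with 18.6 FPKM and Slc32a1 with 18.4 FPKM. The ranges of Pvalb and Slc32a1 over these libraries overlapped, so their order is not settled. Erbb4 came next with 15.6 FPKM and Reln with 7.08 FPKM. Calb2 had 3.19 FPKM, Adarb2 2.86 FPKM and Lhx6 2.57 FPKM, and each of these overlapped its neighbour in the order. In the Saline group with Saline 1 included, Gad1 averaged 46.2 FPKM, above Lamp5 with 43.5 FPKM, and each of the 7 highest genes overlapped the next.

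**Figure D1:**
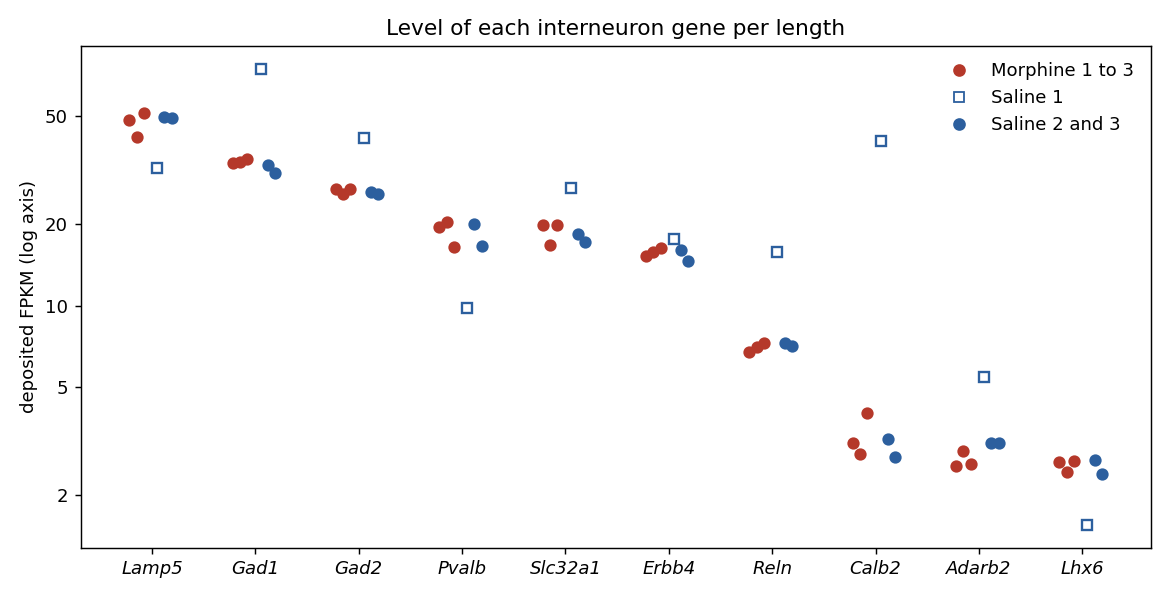
Deposited FPKM (log axis) of the 10 genes, ordered by their mean over the 5 libraries other than Saline 1, with 1 point for each library and the Morphine libraries left of the Saline libraries. Lamp5 was highest at 47.9 FPKM and Lhx6 lowest at 2.57 FPKM over those 5 libraries, and the open squares of Saline 1 lie outside the other points of every gene.

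No gene of the 18970 tested passed an adjusted p of 0.05 between the Morphine and the Saline libraries with edgeR's quasi-likelihood test (0 genes, 0%), so 0 of the 10 interneuron genes did. In the same libraries 1465 genes had an unadjusted p under 0.05, and DESeq2 called 16 genes at the adjusted threshold. At an unadjusted p under 0.05, 0 of the 10 were higher in Morphine, where 2.77% of all genes were, and 2 of the 10, Calb2 and Adarb2, were lower, where 4.96% of all genes were. Without Saline 1, 0.996% of 18671 genes passed an adjusted p of 0.05 and 0 of the 10 were among them. At the unadjusted threshold 0 of the 10 were then higher, against 4.14% of all genes, and 1 of the 10, Adarb2, was lower, against 7.53% of all genes. The median log2 fold change of the 10 was −0.17 with all 6 libraries, beside −0.01 over all genes, and 0.04 without Saline 1, beside 0.00493 over all genes. The sign of the fold change turned for 6 of the 10 genes when Saline 1 was left out (Gad1, Gad2, Slc32a1, Calb2, Lamp5 and Erbb4) and was kept for the other 4.

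**Figure D2:**
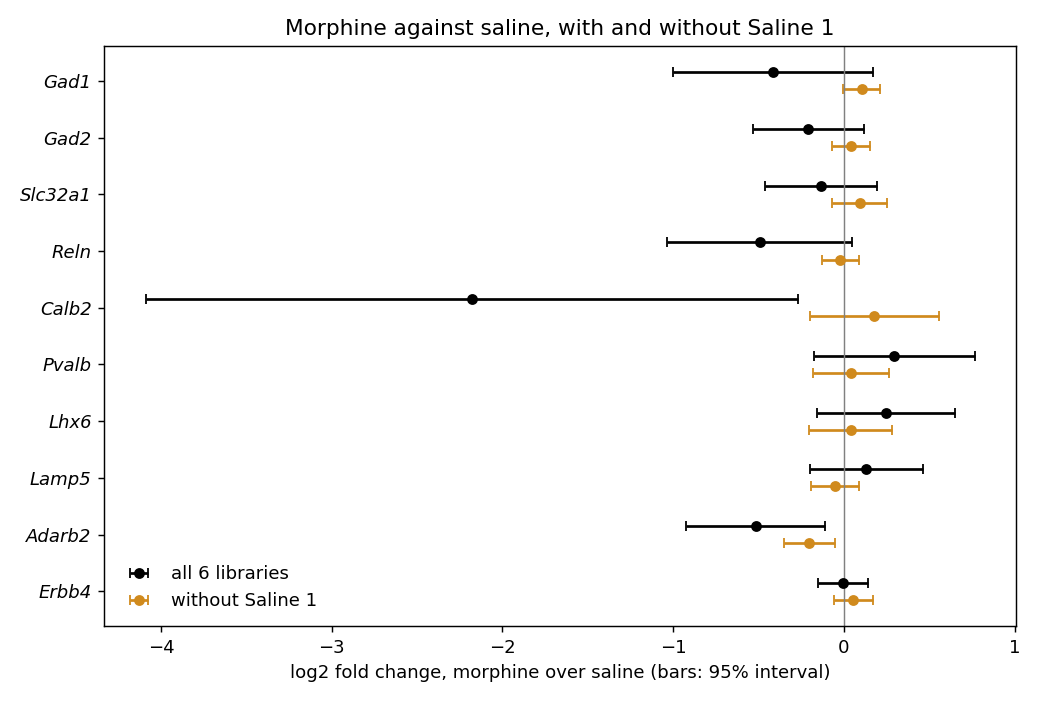
Log2 fold change of Morphine over Saline for each of the 10 genes (points) with its 95% interval from edgeR (bars), for all 6 libraries in black and without Saline 1 in orange. The interval of Calb2 spans −4.09 to −0.27 with all libraries and −0.20 to 0.56 without Saline 1, and Adarb2 is the gene whose interval lies below 0 in both.

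Saline 1 was either the highest or the lowest library for every one of the 10 genes. It was highest for 7 of them, where 24.9% of all tested genes were highest in this library, and lowest for 3, where 22.1% of all genes were lowest in it. It was over 1.5 times the next library for 4 of the 10 (Calb2, Reln, Gad1 and Adarb2), where 2.4% of all genes were. The biological coefficient of variation that edgeR estimated for the 10 ran from 0.0643 to 0.649 with all libraries and from 0.0398 to 0.106 without Saline 1, and was smaller without it for all 10 genes. The median over all genes was 0.112 with all libraries and 0.0745 without Saline 1.

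Gad1 and Gad2 encode the paired forms of glutamate decarboxylase, the enzyme that makes GABA, and Slc32a1 encodes the transporter that loads it into synaptic vesicles. Gad1 (chr2:70553072-70602014) had 260, 257 and 270 CPM in Morphine 1 to 3, against 560, 253 and 235 CPM in Saline 1 to 3. The Morphine libraries lay between Saline 1, which was 2.07 times the highest of the others, and the remaining Saline libraries. Gad1 averaged 262 ± 7.09 CPM in Morphine and 350 ± 183 CPM in Saline (SD, n = 3 each), a log2 fold change of −0.42 (SE 0.26, edgeR adjusted p = 0.706). Without Saline 1 the log2 fold change was 0.11 (SE 0.05, 95% interval −0.0022 to 0.21, edgeR adjusted p = 0.440), and all 3 Morphine libraries were above both Saline libraries. Of the 10 genes, 1 had this pattern without Saline 1, and 12.7% of all genes did. The summed level of 8 markers of striatal neurons, which also make GABA, was higher in every Morphine library than in any Saline library, Saline 1 included, at 231 to 236 CPM in Morphine 1 to 3, against 192 CPM in Saline 1 and 196 to 200.3 CPM in Saline 2 and 3. Pde10a alone, a phosphodiesterase, gave 121, 120 and 129 CPM of this sum in Morphine 1 to 3, against 108, 101 and 100 CPM in Saline 1 to 3. Of these 8, all detected in every library, 2 (Ppp1r1b and Pde10a) were higher in Morphine at the unadjusted threshold with and without Saline 1. With all libraries 6 had positive fold changes and 2 negative, Drd2 (log2 fold change −0.57) and Gpr6 (−0.16), and Drd1 was at 0.06. Without Saline 1, 7 were positive and 1 negative. Pde10a also passed the adjusted threshold without Saline 1 (log2 fold change 0.30, edgeR adjusted p = 0.00725). The part of this list in the level of Gad1 was not tested.

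Gad2 (chr2:22622205-22693874) had 161, 150 and 161 CPM in Morphine 1 to 3, against 239, 155 and 151 CPM in Saline 1 to 3. Apart from Saline 1 the groups overlapped. The log2 fold change was −0.21 (SE 0.15, edgeR adjusted p = 0.722) with all libraries and 0.04 (SE 0.05, edgeR adjusted p = 0.818) without Saline 1. Slc32a1 (chr2:158610767-158615748) had 56.0, 46.5 and 56.6 CPM in Morphine 1 to 3, against 74.7, 51.7 and 48.0 CPM in Saline 1 to 3. Here too the groups overlapped, with Saline 1 at 1.32 times the highest of the others. Its log2 fold change was −0.13 (SE 0.15, edgeR adjusted p = 0.820) with all libraries and 0.09 (SE 0.08, edgeR adjusted p = 0.706) without Saline 1.

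The excess in Saline 1 was not the same for the 3 GABA genes, being largest for Gad1 and smallest for Slc32a1. The ratio of Gad1 to Gad2 in FPKM was 1.25, 1.32 and 1.29 in Morphine 1 to 3, against 1.803, 1.25 and 1.20 in Saline 1 to 3. The ratio of Slc32a1 to Gad1 in FPKM was 0.588, 0.495 and 0.572 in Morphine 1 to 3, against 0.364, 0.559 and 0.557 in Saline 1 to 3. Both ratios in Saline 1 lay outside the range of all other libraries. An antisense transcript overlaps Slc32a1 (Gm14205), with 67, 61 and 77 counts in Morphine 1 to 3, against 82, 68 and 50 counts in Saline 1 to 3, and another overlaps Gad1 (Gad1os), with at most 9 counts in any library. The libraries keep strand, but no source used here tells whether the counting took strand into account, so reads of a gene and of its antisense partner may not have been told apart.

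**Figure D3:**
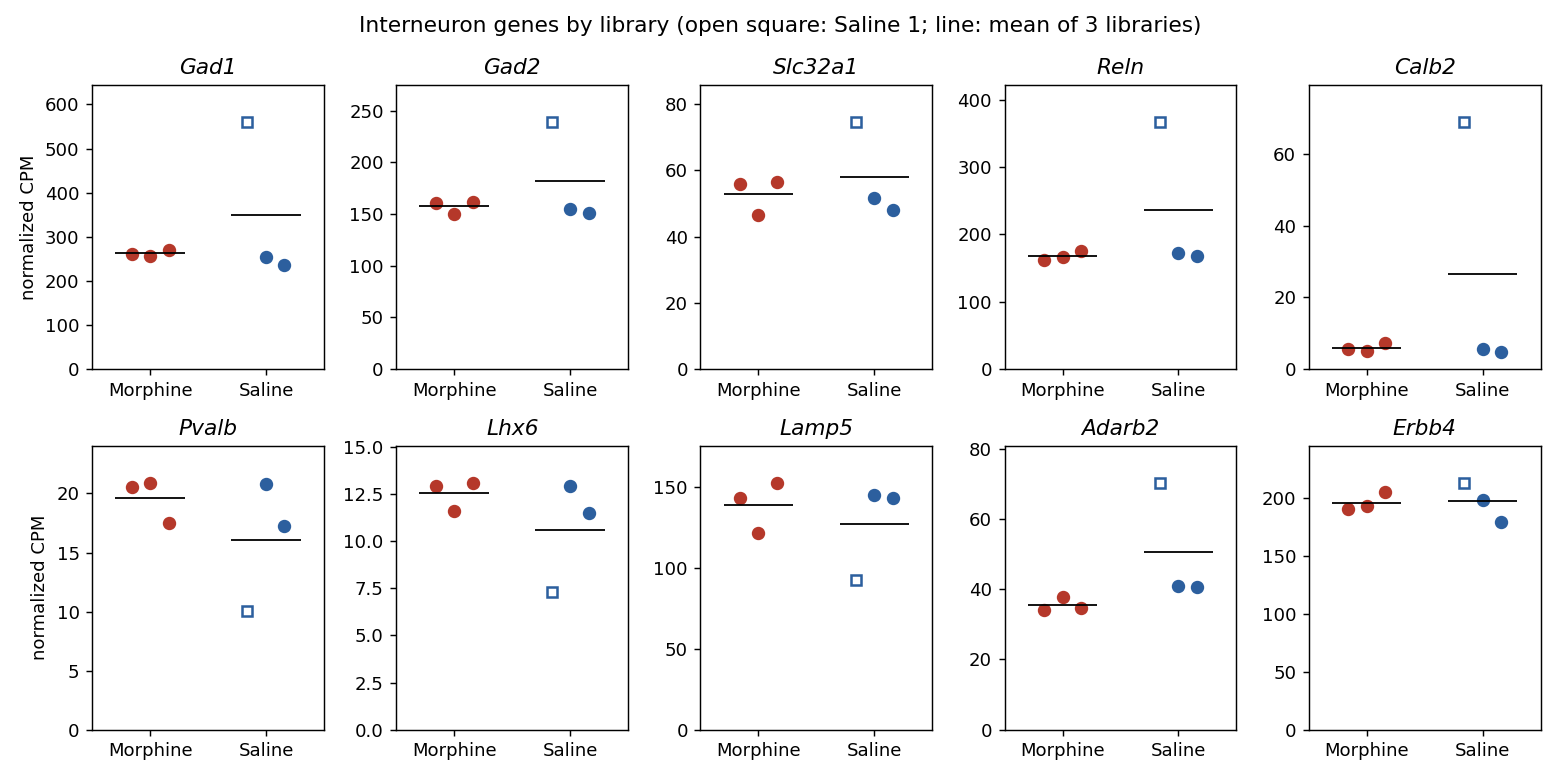
Normalized CPM of each gene in each library, Morphine at the left and Saline at the right of every panel, with the line at the mean of 3 libraries and the open square marking Saline 1. Saline 1 is highest in 7 panels, from Gad1 (560 CPM, against 235 to 270 CPM elsewhere) to Calb2 (69.0 CPM, against 4.802 to 7.14 CPM elsewhere), and lowest in the panels of Pvalb, Lhx6 and Lamp5.

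Pvalb and Lhx6 were lowest in Saline 1. Lhx6 encodes a LIM homeodomain factor that interneurons of the medial ganglionic eminence need in order to mature, and Pvalb encodes the calcium-binding protein parvalbumin of their fast-spiking class. Pvalb (chr15:78191114-78206400, minus strand) had 20.6, 20.9 and 17.5 CPM in Morphine 1 to 3, against 10.1, 20.8 and 17.3 CPM in Saline 1 to 3. Saline 2 and 3 covered nearly the same range as the Morphine libraries, and Saline 1 was 0.582 times the lowest of the others. Pvalb averaged 19.7 ± 1.89 CPM in Morphine and 16.0 ± 5.47 CPM in Saline (SD, n = 3 each), a log2 fold change of 0.30 (SE 0.21, edgeR adjusted p = 0.725). Without Saline 1 it was 0.04 (SE 0.11, edgeR adjusted p = 0.920).

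Lhx6 (chr2:36081953-36105408, minus strand) had 12.9, 11.6 and 13.1 CPM in Morphine 1 to 3, against 7.33, 13.0 and 11.5 CPM in Saline 1 to 3. The groups again overlapped apart from Saline 1, which was 0.638 times the lowest of the others. Its fold change on the log2 scale was 0.25 (SE 0.18, edgeR adjusted p = 0.729) with all libraries and 0.04 (SE 0.12, edgeR adjusted p = 0.933) without Saline 1. Over the 5 libraries other than Saline 1, Lhx6 rested on 210 to 303 counts, so counting alone gave an error of 6.90% at the lowest, close to its coefficient of variation of 6.49%. For Pvalb, with 338 to 441 counts in these libraries, the same figures were 5.44% and 9.58%. In Saline 1 both genes stood lower against the others than the summed pyramidal markers, which were 0.823 times the mean of the other 5 libraries, where Pvalb was 0.518 times and Lhx6 0.590 times that mean. The summed level of 13 further genes of medial eminence interneurons, listed below, was 0.908 times that mean, above the pyramidal markers. Of these 13 genes, 2 were highest and 4 were lowest in Saline 1.

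Lamp5 encodes a membrane protein that marks neurogliaform interneurons of the upper layers, and it is also read in some pyramidal cells. It was the most abundant of the 10 genes per length outside Saline 1. Lamp5 (chr2:136052239-136069917) had 143, 122 and 153 CPM in Morphine 1 to 3, against 92.9, 145 and 144 CPM in Saline 1 to 3. Both remaining Saline libraries lay inside the Morphine range, and Saline 1 was 0.762 times the lowest of the others. Lamp5 had a log2 fold change of 0.13 (SE 0.15, edgeR adjusted p = 0.825) with all libraries and of −0.05 (SE 0.07, edgeR adjusted p = 0.832) without Saline 1.

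Reln encodes reelin, a large secreted protein that guides migrating neurons in development and is released by a part of the interneurons in the adult cortex. Reln (chr5:21884454-22344702, minus strand, up to 65 exons) had 162, 166 and 176 CPM in Morphine 1 to 3, against 367, 173 and 169 CPM in Saline 1 to 3. The groups overlapped outside Saline 1, where the gene was at 2.09 times the highest of the others. Reln had a log2 fold change of −0.49 (SE 0.24, edgeR adjusted p = 0.662) with all libraries and of −0.02 (SE 0.05, 95% interval −0.13 to 0.09, edgeR adjusted p = 0.918) without Saline 1. Its coefficient of variation over the 5 other libraries was 3.12%, the smallest of the 10 genes. Reelin is also the product of Cajal-Retzius cells and of mitral cells in the olfactory bulb. Of the Cajal-Retzius markers, Trp73 and Lhx5, the summed level was 0.563 to 1.22 CPM in the Morphine libraries, against 2.20 CPM in Saline 1 and 0.613 to 0.664 CPM in Saline 2 and 3. These sums rest on few counts. Trp73 had 22, 16 and 13 counts in Morphine 1 to 3, against 33, 13 and 13 counts in Saline 1 to 3. Lhx5 had 18 counts in Saline 1 and 0 in every other library.

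Calb2 encodes the calcium-binding protein calretinin, found in a class of cortical interneurons and in many periglomerular and granule cells of the olfactory bulb. It carried the widest difference. Calb2 (chr8:110137502-110168210, minus strand) had 99, 89 and 165 counts in Morphine 1 to 3, against 1599, 119 and 94 counts in Saline 1 to 3, or 5.47, 4.91 and 7.14 CPM against 69.0, 5.61 and 4.802 CPM. Saline 1 was 9.66 times the highest of the others, and the remaining Saline libraries overlapped the Morphine libraries. Calb2 averaged 5.84 ± 1.16 CPM in Morphine and 26.5 ± 36.8 CPM in Saline (SD, n = 3 each). The log2 fold change was −2.18 (SE 0.86, 95% interval −4.09 to −0.27, edgeR adjusted p = 0.616). Without Saline 1 it was 0.18 (SE 0.18, 95% interval −0.20 to 0.56, edgeR adjusted p = 0.770), so its direction rested on that library. The unadjusted call was also lost when any 1 of the Morphine libraries was left out, with log2 fold changes of −2.13, −2.07 and −2.36 without Morphine 1, 2 and 3.

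Adarb2 was the gene of the 10 whose Morphine libraries all lay below all of its Saline libraries. It encodes a brain-enriched relative of the RNA-editing enzymes, with no editing activity of its own known, and its RNA marks interneurons of the caudal ganglionic eminence. Adarb2 (chr13:8202866-8768747) had 34.0, 37.7 and 34.7 CPM in Morphine 1 to 3, against 70.3, 41.0 and 40.7 CPM in Saline 1 to 3. The highest Morphine library stood below all 3 Saline libraries. This pattern, lower with no overlap, was seen in 1 of the 10 genes and in 7.32% of all genes, and the opposite pattern in 0 of the 10 and 5.98% of all genes. Adarb2 averaged 35.5 ± 1.98 CPM in Morphine and 50.7 ± 17.0 CPM in Saline (SD, n = 3 each), a log2 fold change of −0.52 (SE 0.18, 95% interval −0.92 to −0.11, edgeR adjusted p = 0.616).

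Without Saline 1 the difference in Adarb2 was smaller and its direction was kept. It was then −0.20 on the log2 scale (SE 0.07, 95% interval −0.35 to −0.05, edgeR adjusted p = 0.232). Lower with no overlap held for 14.9% of all genes in these 5 libraries and for 1 of the 10. Over the 14 alternative settings the fold change of Adarb2 was negative in all, with an unadjusted p under 0.05 in 9 of them. The adjusted p over these settings ran from 0.000668, with no filter on low counts, to 0.977. The unadjusted call was lost without Morphine 1 (log2 fold change −0.49) and without Morphine 3 (−0.50), where the fold change stayed near the −0.52 of all libraries. Over all genes, 754 and 748 passed the unadjusted threshold in these smaller fits, against 1465 with all libraries. The deposited FPKM was 2.56, 2.90 and 2.60 in Morphine 1 to 3, against 5.46, 3.11 and 3.11 in Saline 1 to 3. These values are the same counts over a fixed length, so they add no independent measurement.

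The annotation places 3 features of type TEC (to be tested by experiment, mostly unspliced evidence) inside the 566 kb of Adarb2 on its own strand. The most counted of them, Gm48261, had 115, 141 and 150 counts in Morphine 1 to 3, against 430, 161 and 174 counts in Saline 1 to 3. Its log2 fold change was −0.77 (edgeR adjusted p = 0.616) with all libraries and −0.26 without Saline 1. The other TEC features of Adarb2 had 41 counts or fewer in every library except Saline 1. All 3 had a negative fold change with all libraries and 2 of 3 without Saline 1, where 77.8% and 80.7% of all TEC features tested were negative. Whether unspliced RNA of Adarb2 itself contributed to these counts was not tested.

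Erbb4 encodes the receptor for neuregulins that in the cortex is found mainly in interneurons, where it takes part in the formation of their synapses. With all libraries its fold change was the smallest of the 10 genes. Erbb4 (chr1:68032186-69108059, minus strand) had 191, 193 and 205 CPM in Morphine 1 to 3, against 213, 198 and 179 CPM in Saline 1 to 3. The Morphine values lay inside the Saline range. Erbb4 had a log2 fold change of −0.0074 (SE 0.07, 95% interval −0.15 to 0.14, edgeR adjusted p = 0.980) with all libraries and of 0.06 (SE 0.06, edgeR adjusted p = 0.764) without Saline 1. In contrast, the 5 TEC features tested inside Erbb4 all had negative fold changes, with a median of −0.47, and 4 of 5 were negative without Saline 1, with a median of −0.34. Gm37061, the most negative of them, had 15, 24 and 22 counts in Morphine 1 to 3, against 48, 26 and 41 counts in Saline 1 to 3 (log2 fold change −0.80, edgeR adjusted p = 0.616, and −0.67 without Saline 1). Over all 1683 TEC features the median was −0.24 with all libraries and −0.31 without Saline 1.

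Set against each other within a library, genes of different interneuron classes had other proportions in Saline 1 than in the remaining 5 libraries. The ratio of Calb2 to Pvalb in FPKM was 0.159, 0.1403 and 0.244 in Morphine 1 to 3, against 4.10, 0.161 and 0.166 in Saline 1 to 3. The ratio of Reln to Lamp5 was 0.1399, 0.168 and 0.142 in Morphine 1 to 3, against 0.489, 0.147 and 0.145 in Saline 1 to 3. The ratio of Lhx6 to Adarb2, which sets 1 gene of the medial against 1 gene of the caudal lineage, was 1.04, 0.838 and 1.03 in Morphine 1 to 3, against 0.285, 0.864 and 0.770 in Saline 1 to 3. In each ratio Saline 1 lay outside the range of the other libraries and the groups overlapped without it. Each ratio sets 1 gene against 1 other, so it does not stand for a whole class. In Saline 1 the summed further genes of the medial and the caudal lineage, listed below, were at 0.908 and 1.08 times the mean of the other 5 libraries. Of 11 tested caudal genes, Saline 1 was the highest library for 4 and the lowest for 4.

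**Figure D4:**
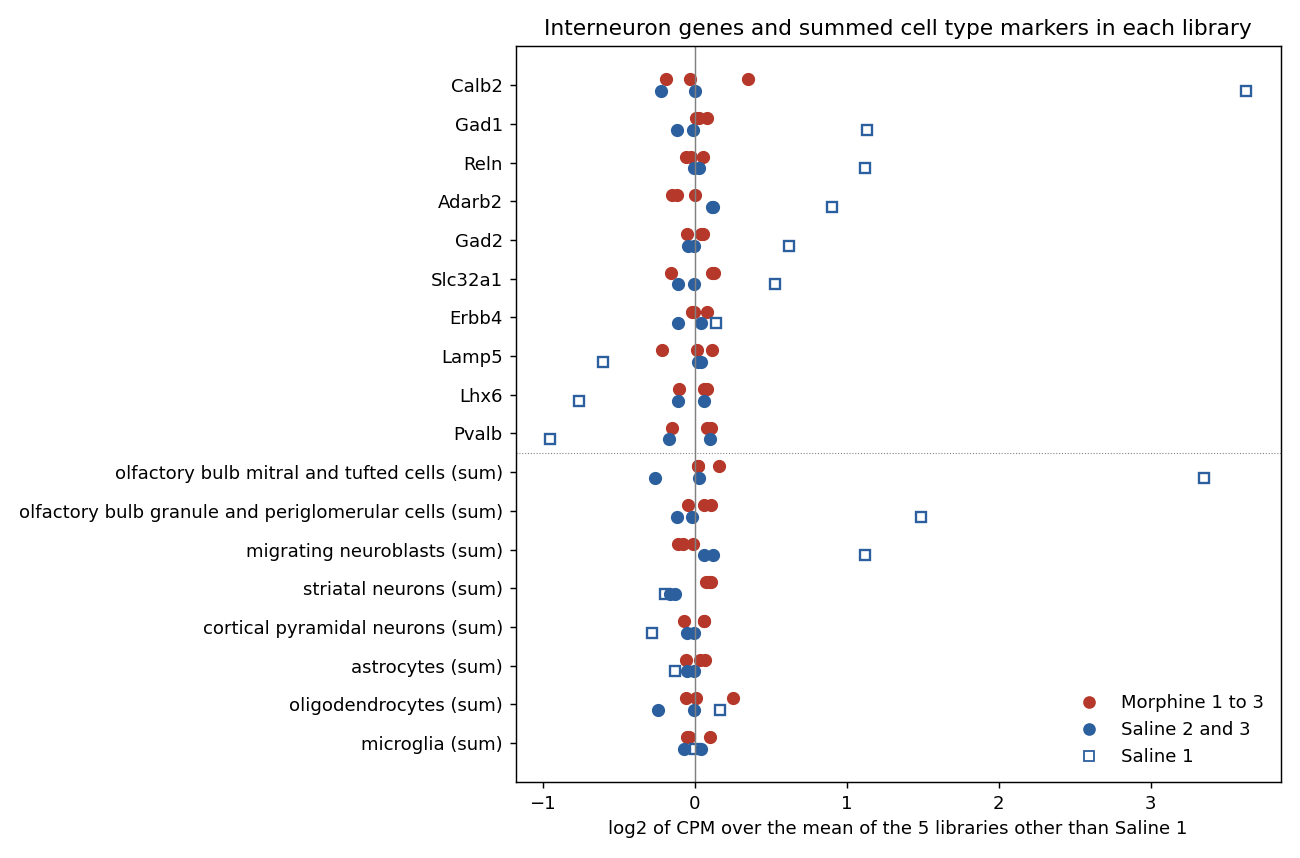
Level of each gene (above the dotted line) and summed markers of other cell types (below it) in each library, as log2 of CPM over the mean of the 5 libraries other than Saline 1. Saline 1 (open squares) is at 12.3 times that mean for Calb2 and 10.2 times for the mitral and tufted cell markers, and at 0.518 times for Pvalb and 0.823 times for the pyramidal markers.

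Genes that act beside the 10 were counted by list. Of 43 such genes in 5 lists, 41 were tested, and at an unadjusted edgeR p under 0.05 1 was higher in Morphine and 1 lower, where 2.77% and 4.96% of all genes were. Without Saline 1, 3 were higher and 1 lower, where 4.14% and 7.53% of all genes were. The median log2 fold change of the 41 was −0.01 with all libraries, the same to 2 decimals as over all genes, and 0.07 without Saline 1. Saline 1 was the highest library for 20 of the 41 and the lowest for 10, where it was highest for 24.9% and lowest for 22.1% of all genes.

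The homeobox genes Dlx1, Dlx2, Dlx5 and Dlx6 specify GABA neurons of the forebrain. All 4 had negative fold changes with all libraries (median −0.96) and 1 passed the unadjusted threshold. Dlx2 had 30, 14 and 33 counts in Morphine 1 to 3, against 172, 42 and 29 counts in Saline 1 to 3, with a log2 fold change of −1.50 (edgeR adjusted p = 0.616) and, without Saline 1, of −0.42 (adjusted p = 0.667). Dlx5 and Dlx6 had log2 fold changes of −1.13 and −0.73 (edgeR adjusted p = 0.675 for both) with all libraries. For Dlx5 the value was 0.05 without Saline 1, and for Dlx6 it was −0.05. Without Saline 1 the median of the 4 was −0.000802 and 0 passed. The summed level of the list was 14.2 to 16.7 CPM in the Morphine libraries, against 55.6 CPM in Saline 1 and 13.0 to 14.9 CPM in Saline 2 and 3.

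Of 5 genes that take up or break down GABA, 0 passed the unadjusted threshold with or without Saline 1. With all libraries the lowest p-values belonged to the transporters Slc6a13 (log2 fold change −0.47, edgeR adjusted p = 0.693) and Slc6a11 (−0.39, adjusted p = 0.707) and to the transaminase Abat (−0.07, adjusted p = 0.820). Without Saline 1 the log2 fold changes were −0.0078 for Slc6a13, 0.10 for Slc6a11 and 0.03 for Abat, so the last 2 turned sign. Slc6a11, the transporter of astrocytes, had 1992, 1895 and 2531 counts in Morphine 1 to 3, against 5144, 2149 and 1965 counts in Saline 1 to 3. Saline 1 was the highest library for all 5 genes of this list.

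Genes of interneurons of the medial ganglionic eminence had small and mostly positive fold changes. Of 13 genes, 10 had positive fold changes with all libraries (median 0.13) and 11 without Saline 1 (median 0.12), with 0 and 1 past the unadjusted threshold. With all libraries the lowest p-values were those of the transcription factor Maf (log2 fold change 0.18, edgeR adjusted p = 0.638), of Elfn1, a synaptic adhesion protein of somatostatin cells (0.16, adjusted p = 0.662), and of Syt2, a calcium sensor of release in parvalbumin cells (0.34, adjusted p = 0.672). Without Saline 1 the log2 fold change was 0.12 for Maf and 0.13 for Syt2. Elfn1 had 22.9, 22.8 and 22.3 CPM in Morphine 1 to 3, against 20.9, 20.7 and 19 CPM in Saline 1 to 3, and a log2 fold change of 0.19 (edgeR adjusted p = 0.421) without Saline 1. Over all genes, 9002 of 18970 had positive fold changes with all libraries and 9604 of 18671 without Saline 1. Of the 12 pyramidal markers, 11 had positive fold changes with all libraries (median 0.17, 2 past the unadjusted threshold) and 11 without Saline 1 (median 0.10, 3 past it), and their part in the medial eminence values was not tested.

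Of 12 further genes of the caudal ganglionic eminence lineage, 11 were tested. With all libraries 7 had positive and 4 negative fold changes (median 0.04), and 1 was higher and 0 lower in Morphine at the unadjusted threshold. Without Saline 1, 9 were positive and 2 negative (median 0.08), and 2 were higher and 0 lower. Most of these genes thus went the other way from Adarb2. Cck, the neuropeptide cholecystokinin, which pyramidal cells also make, had 183, 137 and 164 CPM in Morphine 1 to 3, against 123, 144 and 140 CPM in Saline 1 to 3. Its log2 fold change was 0.25 (edgeR adjusted p = 0.616) with all libraries and 0.18 (adjusted p = 0.327) without Saline 1. Ndnf, a marker of neurogliaform cells, had 395, 513 and 539 counts in Morphine 1 to 3, against 1978, 442 and 385 counts in Saline 1 to 3. Its log2 fold change was −0.78 (edgeR adjusted p = 0.692) with all libraries and 0.27 (adjusted p = 0.260, past the unadjusted threshold) without Saline 1, so its direction turned with that library. Vip, a neuropeptide of cells that inhibit other interneurons, had a log2 fold change of 0.15 (edgeR adjusted p = 0.709) with all libraries and of 0.05 without Saline 1.

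Among 9 ligands of ErbB4 and receptors or adaptors of reelin, 8 were tested and 0 passed the unadjusted threshold with all libraries. The lowest p-values were those of Dab1, the adaptor inside the cell that reelin acts through (log2 fold change −0.09, edgeR adjusted p = 0.691), Nrg2 (−0.16, adjusted p = 0.763) and the reelin receptor Lrp8 (−0.09, adjusted p = 0.796). Their log2 fold changes without Saline 1 were −0.05 for Dab1, −0.07 for Nrg2 and 0.03 for Lrp8. Without Saline 1, 1 of the 8 was lower in Morphine at the unadjusted threshold, the neuregulin Nrg3, with 120, 118 and 112 CPM in Morphine 1 to 3, against 92.3, 127 and 132 CPM in Saline 1 to 3. Its log2 fold change was −0.01 with all libraries and −0.16 (edgeR adjusted p = 0.2) without Saline 1.

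**Figure D5:**
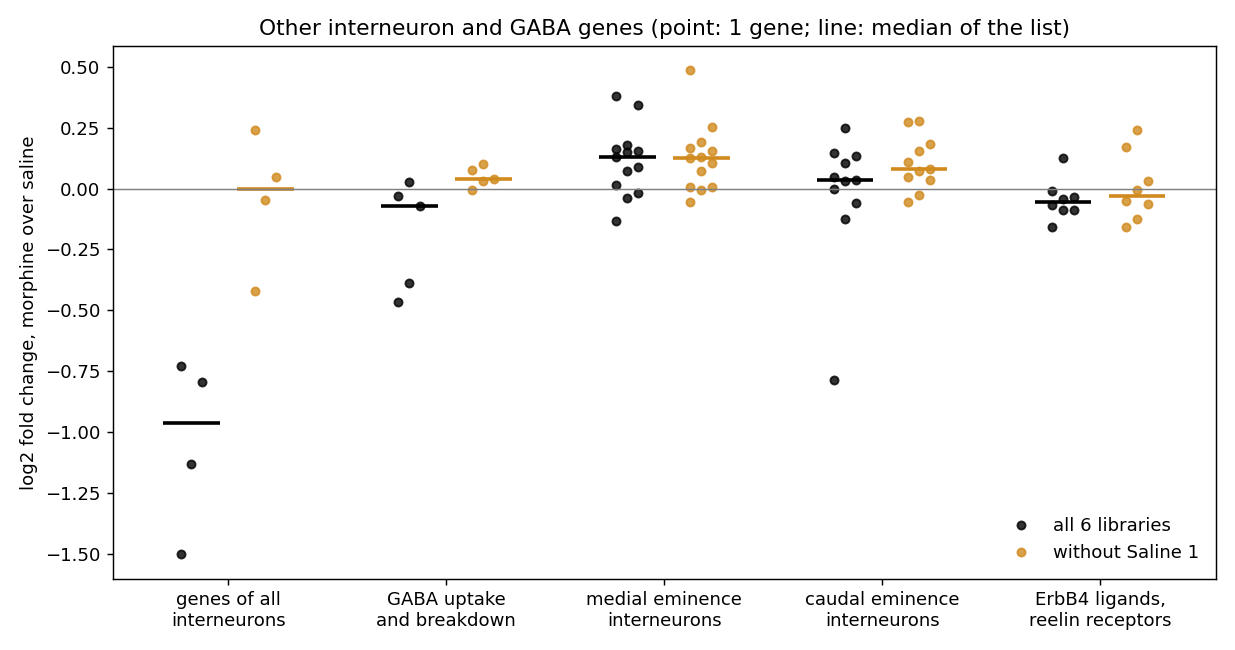
Log2 fold change of Morphine over Saline for the tested genes of 5 lists (points) and the median of each list (lines), with all 6 libraries in black and without Saline 1 in orange. The median of the Dlx list lies at −0.96 with all libraries and at −0.000802 without Saline 1, and that of the medial eminence list lies at 0.13 and 0.12.

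The genes whose levels ran most like each of the 10 over the 6 libraries were sought among 12144 genes with a mean of at least 5 CPM, by Pearson correlation of log2 CPM. For Gad1 they were Kctd12 (r = 0.999), Lgr5 (r = 0.998) and Prune2 (r = 0.998), for Calb2 Peli2 (r = 0.998), Grm4 (r = 0.997) and Lgr5 (r = 0.997), for Pvalb Gm10635 (r = 0.996), Gm17018 (r = 0.991) and Pex5l (r = 0.991), and for Adarb2 Knop1 (r = 0.9995), Baiap3 (r = 0.999) and U2surp (r = 0.998). The 6 points share their depth and their scaling, and Saline 1 lies outside the range of the other 5 for each of these 4 interneuron genes. Lgr5, for instance, was at 9.14 times its highest level elsewhere in Saline 1, and Gm10635 was at 0.398 times its highest level elsewhere, while U2surp was at 1.07 times its highest level elsewhere.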

How the data were processed

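Ribosomal RNA was removed from total RNA of the mPFC and directional libraries were sequenced. The authors deposited 1 table with whole-number counts of reads per gene and, beside them, FPKM values for the same 6 libraries. The methods name StringTie for the FPKM of lncRNAs, and which tool made the deposited values was not tested. Per the labels the build was mm10, and the submitters' processing notes list cutadapt 1.9.3, HISAT2 2.1.0, HTSeq 0.11.2 and StringTie 1.3.3, without their settings. For the 13342 genes that reached 50 counts everywhere, the deposited FPKM values followed the counts over 1 length for each gene, to within 0.001 on the log2 scale (100% of genes), so they add no independent measurement.

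Counts were tested with edgeR 4.0.16 in R 4.3.3 (TMM factors 0.983 to 1.02, quasi-likelihood F test, two-sided, group as the only term) for genes that reached 10 counts in 3 or more libraries, with Benjamini-Hochberg adjustment over all genes tested. Samples were grouped by their titles. The methods name DEGseq for the study's own comparison, and it was not used here, so that the spread between replicates enters the test. CPM values are scaled by the TMM factors of all 6 libraries. Total counts of 17984153 to 23529592 set the precision, and the smallest count of any of the 10 genes was 89. The script was tested on simulated counts first. All 10 genes were described. A few genes of the lists are not reported here and were left out of the counts. From each list of related genes the 3 of lowest p were named, and for each of the 10 genes up to 3 of the most similar pattern. The TEC features and Nrg3 fall outside that rule and were chosen after their values were seen, as were the genes past the threshold without Saline 1. The members and lists were chosen with earlier results of these data known. Alternatives were DESeq2 1.42.0, RLE size factors, 2 other filters, a replicate block, limma 3.58.1 on log2(FPKM + 0.1) and log2(FPKM + 1), and each library left out in turn. Gene spans come from GENCODE (GRCm38) and start regions from RefSeq (GRCm38.p6). Calb2's start region and the proteins were not used here.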

Additional observations from a re-analysis of the deposited data

How the results depend on the processing

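Of 140 values of the 10 genes under alternative settings, 101 kept their direction and their side of the unadjusted threshold, 11 passed it newly, 12 no longer passed it and 16 changed sign. Of these sign changes, 12 came from settings without Saline 1. Leaving out 1 library at a time gave log2 fold changes of −0.63 to 0.11 for Gad1, −0.321 to 0.0414 for Gad2, −0.248 to 0.0920 for Slc32a1, −2.66 to 0.18 for Calb2, −0.0493 to 0.239 for Lamp5 and −0.0656 to 0.0551 for Erbb4, and for Erbb4 the sign also turned without Morphine 1 and without Morphine 2. DESeq2 without Saline 1 gave 0.11 for Gad1, 0.0426 for Gad2, 0.0928 for Slc32a1, 0.18 for Calb2, −0.0488 for Lamp5 and 0.0563 for Erbb4. With all libraries DESeq2 gave 0.000907 for Erbb4, and RLE factors in edgeR gave 0.000909. With all libraries DESeq2 returned no p for Calb2, and without Saline 1 its unadjusted DESeq2 p was 0.448. The missing p is counted among the 12 that no longer passed, and below as not passing with DESeq2.

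Genes at an adjusted p under 0.05 numbered 0 with edgeR (1465 at an unadjusted p under 0.05), 16 with DESeq2, 279 with no filter on low counts, 4 with limma on log2(FPKM + 0.1), 85 with DESeq2 without Saline 1, and 0 to 186 when 1 library was left out (186 without Saline 1). Genes at an unadjusted p under 0.05 numbered 974 with DESeq2, 2499 with no filter and 748 to 2179 with 1 library left out, the lowest counts coming without Morphine 3 (748) and Morphine 1 (754). Of the 10 interneuron genes, 2 passed at the unadjusted threshold with edgeR, 0 with DESeq2, 6 with no filter, 0 with either limma setting, 1 with DESeq2 without Saline 1, and 0 to 6 with 1 library left out: 0 without Morphine 1 or 3, 1 without Morphine 2 or Saline 1, 6 without Saline 2 and 5 without Saline 3. Of the 41 related genes, 2 passed with edgeR, 1 with DESeq2, 10 with no filter, 0 with either limma setting and 0 to 11 with 1 library left out (11 without Saline 2, 8 without Saline 3, 0 without Morphine 3). Over all genes, 1465 of 18970 passed with edgeR, 974 of 18970 with DESeq2 and 2499 of 31763 with no filter. The limma settings gave 1558 and 1610 of 22628, and DESeq2 without Saline 1 gave 1278 of 18671. Without Morphine 1, 2 and 3 the counts were 754 of 18787, 2039 of 18771 and 748 of 18663. Without Saline 1, 2 and 3 they were 2179 of 18671, 1611 of 18696 and 1332 of 18726. Without Saline 2 or 3, Saline 1 was 1 of the 2 Saline libraries left. With no filter, genes of very low counts enter the estimate of the spread, and Adarb2 (adjusted p = 0.000668), Reln (adjusted p = 0.00197), Gad1 (adjusted p = 0.0286) and Calb2 (adjusted p = 7.86e-07) passed the edgeR threshold. The cause of the shifts between settings, the one with no filter included, was not tested.

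With the replicate number as a block, 1 of the 10 genes passed at the unadjusted threshold in edgeR (Adarb2, log2 fold change −0.47), where 1315 of 18970 genes did. Libraries of the same number did not deviate together (correlations of 0.02, 0.01 and −0.03), and no source used here names a pairing. With so few libraries this cannot tell whether equal numbers shared a day or a batch.

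Low counts limit Calb2 and Lhx6 most: counting alone gave 10.6% and 7.67% at their lowest library. With 3 Morphine and 2 Saline libraries, the intervals without Saline 1 still allow log2 changes of −0.35 to 0.56 among the 10 genes.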
